A study of Cricetulus griseus with 5 samples.

Results

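Nucleotide salvage genes, together with thymidylate synthase, were followed on 5 two-colour microarrays on which RNA of A23 cells was hybridised against itself. A23 is a Chinese hamster fibroblast line that lacks thymidine kinase activity and serves as the recipient in radiation hybrid panels. The 7 genes were Tk1, Tk2, Hprt, Aprt, Dck, Tyms and Adk, chosen by name, and a probe was taken where the platform's annotation gave it 1 gene symbol and that symbol was one of these. All 7 genes were found, on 9 of the 20868 probes, with 3 probes for Tyms and 1 for each of the other 6 genes. All arrays form 1 group of a single cell line, with A23 RNA labelled with Cy5 for channel 1 and with Cy3 for channel 2. The cells were grown in DMEM with 10% serum and antibiotics to 75% confluence and collected with trypsin, and 20 µg of total RNA was labelled directly. Per the series' design text the arrays are controls for the power to find cis ceQTLs, which link the dosage of a locus to the expression of the gene lying there.

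Nucleotide salvage is what HAT selection, the step by which radiation hybrids are isolated, relies on. Aminopterin, a folate antagonist, blocks the making of purines and thymidylate from small precursors. Cells then survive only by salvage of hypoxanthine, through the phosphoribosyltransferase encoded by Hprt, and of thymidine, through the cytosolic thymidine kinase encoded by Tk1. A hybrid made with A23 must therefore keep the thymidine kinase gene of the donor.

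The deposited values are log ratios of the 2 channels, read here as log10, with a base and a numerator that no source used here states. A sign is that of the deposited value, and a fold holds only under the log10 reading. With 1 RNA in both channels, 0 is the ratio of equal RNA amounts. The dyes were the same way round on every array. A dye effect particular to a probe therefore cannot be told apart from its mean ratio, and was not tested. The table holds no signal intensity, so it shows neither how much Tk1 mRNA A23 cells contain nor whether the 8 fibroblast markers looked up (all listed, 1 of their 8 probes with an exact 0) are expressed. The SD of all log ratios of an array was 0.119 to 0.127 on 4 arrays and 0.174 on replicate 2, and 6.43% (replicate 4) to 20.8% (replicate 5) of the values of an array were exactly 0. Pearson's r between arrays, over all probes, was 0.268 to 0.424 for the 10 pairs, and the 4 pairs with replicate 5 were the lowest. No label ties the arrays to separate cultures or extracts, so a p-value here covers array-to-array spread that may be purely technical. The probes are named for mouse genes, and how well each matches its hamster transcript was not analysed here.

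None of the 45 values of the 9 probes was an exact 0. Among all probes and arrays, 11.5% of values were exactly 0, and 25.7% of probes had an exact 0 on at least 1 array. Of the 9 probes, 4 had a positive and 5 a negative mean ratio. In limma's moderated test against 0, with Benjamini-Hochberg adjustment over all probes, 0 of the 9 passed an adjusted p of 0.05, where 3.42% of all probes did (4.6% of those with no exact 0). At an unadjusted p of 0.05 the same test counted 6 of the 9, 3 positive and 3 negative, and a plain one-sample test without moderation counted 5. Over all probes those shares were 27.3% in limma (13.4% positive and 13.8% negative) and 24% in the plain test, and among probes with no exact 0 the limma share was 33.9%. Without replicate 2 the limma count was 3. Ratios of 1 sign on all 5 arrays were seen for 5 of the 9 probes, 3 positive and 2 negative, beside 26.4% of all probes (13% positive and 13.4% negative) and 35.5% of probes with no exact 0.

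**Figure D1:**
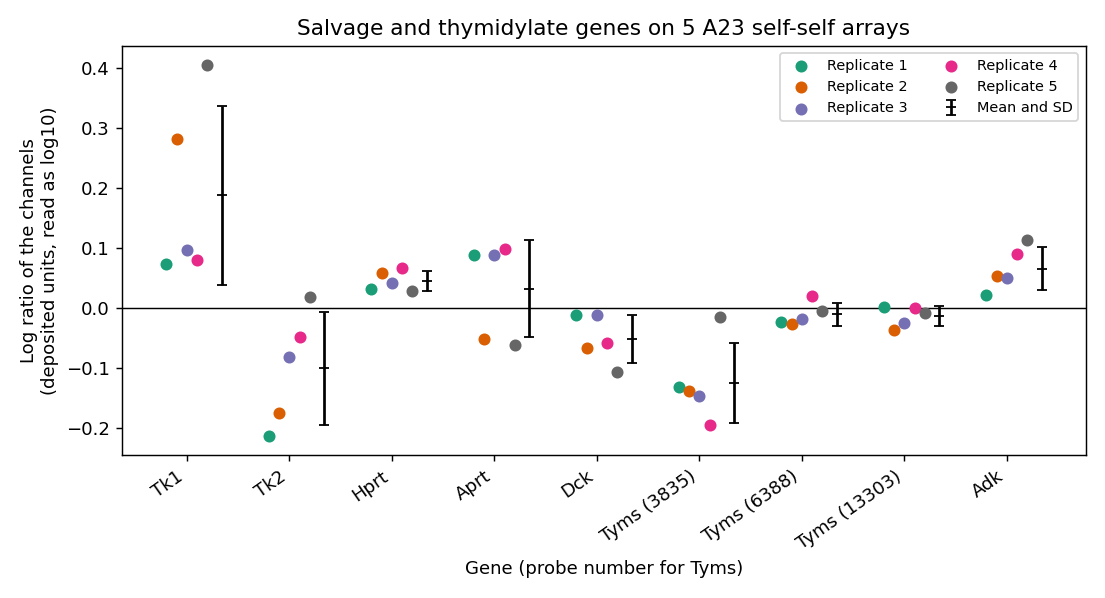
Log ratio (deposited units, read as log10) of each of the 9 probes on each of 5 A23 self-self arrays. Points are arrays, and the black mark and bars are the mean and SD. Tk1 lies above 0 on every array with replicates 2 and 5 far above the others, Hprt lies in a narrow band above 0, and Aprt is on both sides of 0.

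Tk1, the cytosolic thymidine kinase made in cells that replicate their DNA, had the largest mean ratio of the 9 probes. Its log ratios were 0.0739, 0.281, 0.0970, 0.0808 and 0.406 on replicates 1 to 5. Replicates 2 and 5 were high, and the other 3 arrays lay close together at 0.0739 to 0.0970. The mean was 0.188 ± 0.149 (SD, n = 5), a 1.54-fold ratio with an unadjusted 95% interval of 1.08 to 2.20 in limma, and the adjusted p was 0.134. Replicate 5 alone gave 2.55-fold, the 1 value of the 45 beyond 2-fold. Within its array the Tk1 ratio stood at the 84.8th to 90.1st percentile on replicates 1, 3 and 4, at the 94.0th on replicate 2 and at the 99.6th on replicate 5. After arrays were scaled to a common spread, Tk1 was 0.219 on replicate 2 and 0.397 on replicate 5, against 0.0709 to 0.126 on the others. After quantile normalization replicate 2 lay nearer to the others, at 0.182 against 0.0855 to 0.127, and replicate 5 stood at 0.591. The SD of Tk1 was then 0.213. Replicate 2 was the array of widest spread and replicate 5 the one with most exact zeros, and the part of either in the Tk1 values was not tested.

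Tk2, the mitochondrial thymidine kinase that salvages thymidine and deoxycytidine for mitochondrial DNA, leaned the other way. It had -0.213, -0.175, -0.0821, -0.0479 and 0.0184 on replicates 1 to 5, so 4 arrays were negative and replicate 5 was just above 0. The mean was -0.100 ± 0.0942 (SD, n = 5; limma adjusted p = 0.179). The ratio of Tk1 exceeded that of Tk2 on each of the 5 arrays, by 0.288 ± 0.137 (SD). An exact sign-flip permutation test of that difference gave a two-sided p of 0.0625, the smallest that 5 arrays can give, so this design cannot reach 0.05 by that test.

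Hprt, which joins hypoxanthine or guanine to a ribose phosphate and carries the purine arm of HAT selection, varied little between arrays. It stood at 0.0320, 0.0583, 0.0415, 0.0662 and 0.0277 on replicates 1 to 5, positive on each. The mean was 0.0452 ± 0.0167 (SD, n = 5), or 1.11-fold with an unadjusted limma interval of 1.05 to 1.17, and the adjusted p was 0.0662. With arrays weighted by their quality, Hprt passed (limma adjusted p = 0.0449), in a fit that called 7.58% of all probes.

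Aprt, the matching enzyme for adenine, had no settled sign. Replicates 1, 3 and 4 gave 0.0883, 0.0879 and 0.0992, whereas replicates 2 and 5 gave -0.0507 and -0.0614. The mean of 0.0327 ± 0.0812 (SD, n = 5; limma adjusted p = 0.533) was smaller than its spread. The 2 arrays on which Aprt was negative were those on which Tk1 was highest.

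Adk, adenosine kinase, and Dck, which phosphorylates deoxycytidine and purine deoxynucleosides, each kept 1 sign, in opposite directions. The Adk probe had 0.0217, 0.0529, 0.0497, 0.0904 and 0.114 on replicates 1 to 5, with a mean of 0.0657 ± 0.0363 (SD, n = 5; limma adjusted p = 0.0856). The Dck probe had -0.0120, -0.0666, -0.0115, -0.0580 and -0.106, with a mean of -0.0509 ± 0.0401 (SD, n = 5; limma adjusted p = 0.147). Replicate 5 held the highest Adk and the lowest Dck value. Neither passed the threshold, and in folds the means were 1.16 for Adk and 1.12 in the negative direction for Dck.

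Tyms, thymidylate synthase, makes thymidylate from deoxyuridylate with a folate cofactor, the reaction whose loss under aminopterin makes thymidine salvage necessary. Its 3 probes did not give 1 answer. Probe 3835, annotated to a GenBank record that is not a RefSeq transcript, had -0.132, -0.138, -0.147, -0.194 and -0.0147 on replicates 1 to 5. The first 4 of these arrays lay well below 0 and replicate 5 near it, with a mean of -0.125 ± 0.0664 (SD, n = 5; limma adjusted p = 0.0739). Probes 6388 and 13303, both annotated to 1 RefSeq transcript of Tyms, stayed near 0, at -0.0106 ± 0.0190 and -0.0133 ± 0.0168 (SD, n = 5 each). The first of these ranged from -0.0270 to 0.0197 and the second from -0.0369 to 0.00169 over the arrays.

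**Figure D2:**
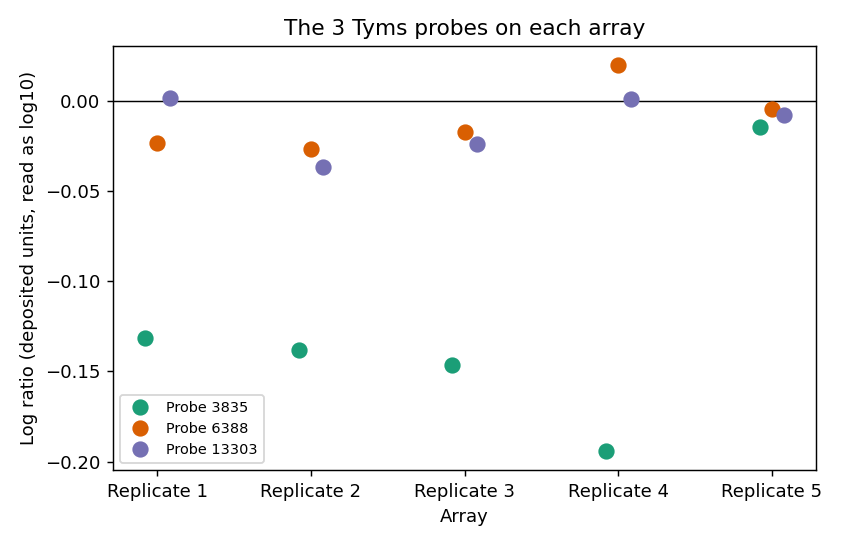
Log ratio (deposited units, read as log10) of the 3 Tyms probes on each array, 1 point per probe and array. Probe 3835 lies at -0.194 to -0.132 on replicates 1 to 4, apart from the other probes, and joins them at -0.0147 on replicate 5.

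Probe 3835 was lower than probe 6388 on each of the 5 arrays, with a mean difference of -0.114 ± 0.0725 (SD), and lower than probe 13303 on each, with -0.112 ± 0.0684 (SD). Both differences had an exact sign-flip p of 0.0625, the smallest possible, and 0.0938 after adjustment over the 3 pairs of probes. Probes 6388 and 13303 differed by 0.00271 ± 0.0167 (SD; exact p = 0.688), less than the spread. Averaged over its probes, Tyms stood at -0.0497 ± 0.0234 (SD, n = 5; limma adjusted p = 0.0786 over 16504 genes), a value that rests on probe 3835. That probe passed when arrays were weighted (limma adjusted p = 0.0356) and when probes with any exact 0 were left out of the fit (0.0483), a fit that called 8.54% of its probes.

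Ordered by mean ratio the probes ran Tk1, Adk, Hprt, Aprt, Tyms 6388, Tyms 13303, Dck, Tk2 and Tyms 3835. None of the 8 differences between neighbours in that order exceeded its own SD over the arrays. The widest was Tk1 over Adk, at 0.122 ± 0.130 (SD), positive on 4 of 5 arrays (exact sign-flip p = 0.125, 0.5 after adjustment over the 8).

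The 9 probes covered a wide range of spread between arrays. The SD was 0.0167 for Hprt, 0.0168 and 0.0190 for Tyms probes 13303 and 6388, 0.0363 for Adk and 0.0401 for Dck, all below the median of 0.0588 over all probes. It was 0.0664 for Tyms probe 3835, 0.0812 for Aprt, 0.0942 for Tk2 and 0.149 for Tk1, which is 8.95 times that of Hprt. Among all probes, the SD of Hprt lay at the 10.0th percentile and that of Tk1 at the 85.1st. The median over the 9 probes was 0.0401.

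**Figure D3:**
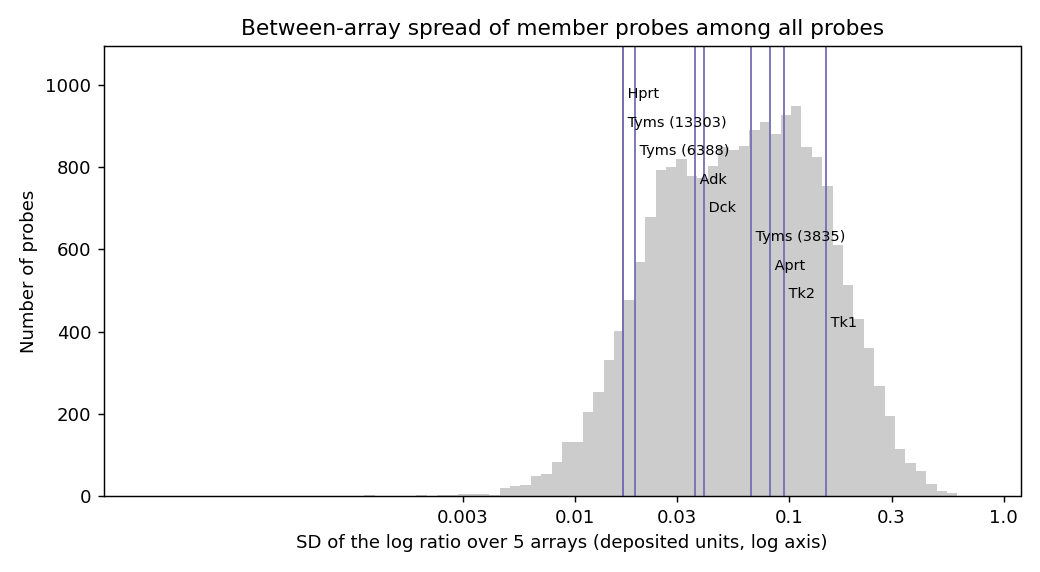
Number of probes by SD of the log ratio over 5 arrays (log axis), with the 9 probes marked by lines. The 412 probes at exactly 0 on all arrays have no SD to plot and are left out. Hprt (0.0167) and Tk1 (0.149) are the ends of the range covered.

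These SDs set what a plain one-sample test of 1 probe on 5 such arrays could detect without adjustment. The purpose the design text names, power to find cis ceQTLs, was not computed here. Calls here were adjusted over all probes, which is stricter than the limits below. With that adjustment, limma found 38.8% of the 1.5-fold changes put into data simulated with the real SDs. At a power of 0.8 and an unadjusted two-sided threshold of 0.05, the smallest detectable ratio was 1.07-fold for Hprt and for Tyms probe 13303 and 1.08-fold for Tyms probe 6388. It was 1.15-fold for Adk, 1.17-fold for Dck, 1.29-fold for Tyms probe 3835, 1.37-fold for Aprt, 1.44-fold for Tk2 and 1.78-fold for Tk1. The median SD of all probes corresponds to 1.26-fold. These limits take a baseline of 0. The mean ratio of A23 against itself was already beyond the limit for Hprt (1.11-fold), Adk (1.16-fold) and Tyms probe 3835 (1.33-fold, negative). For the other probes it was within the limit. A 1.5-fold ratio would be detected with a power of 51.9% for Tk1, 87.1% for Tk2 and 94.4% for Aprt, and a 2-fold ratio with 91.4% for Tk1. Single arrays weigh on these limits. With 4 arrays, the Tk1 limit was 1.62-fold without replicate 5 (SD 0.0990) and 2.14-fold to 2.21-fold without any other array. That of Tyms probe 3835 was 1.15-fold without replicate 5 (SD 0.0283) and 1.357-fold to 1.455-fold otherwise. That of Tyms probe 6388 was 1.05-fold without replicate 4 (SD 0.00985) and 1.098-fold to 1.111-fold otherwise. Only the omission named for each probe lowered its limit. If the values were log2 ratios, the limit for Tk1 would be 1.19-fold and its mean ratio 1.14-fold.

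Some genes with no exact 0 had nearly the same ratios as these over the 5 arrays. Likeness was measured as the root mean square difference of log ratio, with probes of a gene averaged, over 12322 genes. Closest to Tk1 were Taf8, a subunit of the transcription factor TFIID, at a difference of 0.0292, and Sox3, a transcription factor gene, at 0.0306. Taf8 had 0.324 on replicate 2 and 0.367 on replicate 5 against 0.0589 to 0.0807 on the other arrays. It was picked for likeness over these same values, so its sharing of the high arrays follows from the choice. How close a match so large a search gives by chance was not tested. Hprt was closest to Cox17, a copper chaperone for cytochrome c oxidase, at 0.00395, and to Gatad2b at 0.00607. For Tk2 they were Pard6b (0.0252) and Olfr1216 (0.0279), for Aprt Gna11 (0.0197) and Atox1 (0.0269), and for Dck Dock3 (0.00747) and Ufm1 (0.00986). For Tyms they were Slc12a3 (0.00558) and Cited1 (0.00878), and for Adk Tmbim4 (0.00975) and 2510039O18Rik (0.0111).

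The rest of nucleotide metabolism was read from 7 lists, of which 87 genes on 94 probes were found. In limma 0 of the 94 passed the adjusted threshold, where 3.42% of all probes did. An unadjusted p under 0.05 was seen for 28, 18 positive and 10 negative (29.8%, beside 27.3% of all probes). When arrays were scaled, 4 passed, all positive, in a fit that called 4.58% of all probes: Cad, Dut, Ampd2 and Nme3. With array weights 9 passed, Cad, Dut, Ampd2, Nme3, Pfas, Upp1 and Upp2 positive and Nudt1 and Slc29a4 negative, in the fit that called 7.58% of all probes. With probes holding an exact 0 left out 6 passed, Cad, Dut, Upp1 and Upp2 positive and Umps and Slc29a4 negative, in the fit that called 8.54% of its probes. The median of the 94 means was 0.00865, against 0.00187 over all probes. An exact 0 on at least 1 array was seen for 20 of the 94 probes (21.3%, beside 25.7% of all probes). At 0 on all arrays were 4 of the 94, beside 412 of all 20868 probes. They were 2 of Slc28a2, a concentrative nucleoside transporter, and 1 each of the nucleotidases Nt5e and Nt5c1b.

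Synthesis from small precursors, the route that aminopterin cuts, showed ratios of both signs. Of 13 purine synthesis probes (median mean ratio 0.0130), 3 had an unadjusted p under 0.05, all positive, beside 27.3% of all probes (13.4% positive). They were Prps1, which makes the ribose phosphate donor, at 0.0443 ± 0.0196 (SD, n = 5; limma adjusted p = 0.0772), Pfas at 0.107 ± 0.0670, with an exact 0 on replicate 5, and 1 probe of Ppat, the first committed enzyme, at 0.0553 ± 0.0416. The other Ppat probe had a mean of -0.0843 with exact zeros on 3 arrays. Of 7 pyrimidine synthesis probes (median 0.00807), the 1 positive probe under that unadjusted threshold was of Cad, which starts the pathway, at 0.0690 ± 0.0264 (SD, n = 5; limma adjusted p = 0.0564, the lowest of the 94). A second Cad probe with the same annotation gave 0.00807 ± 0.0495. The 1 negative probe was of Umps, which completes uridylate, at -0.153 ± 0.0794, while a second Umps probe gave 0.0187 ± 0.0436. Ctps, a CTP synthase, had 0.0502 ± 0.0541 with exact zeros on 2 arrays.

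Of 16 folate cycle probes (median 0.0117), 3 had an unadjusted p under 0.05, all positive, beside 27.3% of all probes (13.4% positive). Both probes of Mtr, methionine synthase, were among them, at 0.0964 ± 0.0602 and 0.156 ± 0.142 (SD, n = 5 each; limma adjusted p = 0.0958 and 0.167). The other was Slc46a1, a proton-coupled folate transporter, at 0.0604 ± 0.0488 (limma adjusted p = 0.147).

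Of 10 probes of the deoxynucleotide pool (median 0.00581), 3 had an unadjusted p under 0.05, 2 positive and 1 negative (27.3% of all probes did). Dut, which removes dUTP and yields the substrate of thymidylate synthase, had 0.0435, 0.0978, 0.0738, 0.138 and 0.140 on replicates 1 to 5. It was positive on each, with a mean of 0.0986 ± 0.0415 (SD, n = 5; limma adjusted p = 0.0573). Nudt1, which clears oxidised purine nucleotides, was negative on each array at -0.0458 ± 0.0184 (limma adjusted p = 0.0707). A probe of Rrm2b, a small subunit of ribonucleotide reductase, had 0.146 ± 0.107 (limma adjusted p = 0.117), and 2 others of that gene gave 0.108 ± 0.136 and -0.0337 ± 0.0441.

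Of 19 probes for other nucleoside and nucleotide kinases (median 0.0161), 5 had an unadjusted p under 0.05, 3 positive and 2 negative. Over all probes that share was 27.3% (13.4% positive and 13.8% negative). The 3 with the lowest p were Nme3, a nucleoside diphosphate kinase, at 0.0530 ± 0.0206 (SD, n = 5; limma adjusted p = 0.0640), Uckl1 at 0.121 ± 0.0855 and Ak1, an adenylate kinase, at -0.0843 ± 0.0639. Breakdown enzymes had 8 of 22 probes under that threshold, 5 positive and 3 negative (median 0.0199). Upp1, a uridine phosphorylase, had the largest mean ratio of the 22, with 0.365, 0.405, 0.241, 0.0678 and 0.396 on replicates 1 to 5 and a mean of 0.295 ± 0.143 (limma adjusted p = 0.0640). Its relative Upp2 had 0.127 ± 0.0594 and the AMP deaminase gene Ampd2 0.0567 ± 0.0217 (limma adjusted p = 0.0632 and 0.0609). Nucleoside transporters had 4 of 7 probes under it, 1 positive and 3 negative, with a median of 0: Slc29a3 stood at 0.0928 ± 0.0638, Slc29a1, the main equilibrative nucleoside transporter, at -0.0481 ± 0.0257 and Slc29a4 at -0.0703 ± 0.0322 (SD, n = 5 each).

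**Figure D4:**
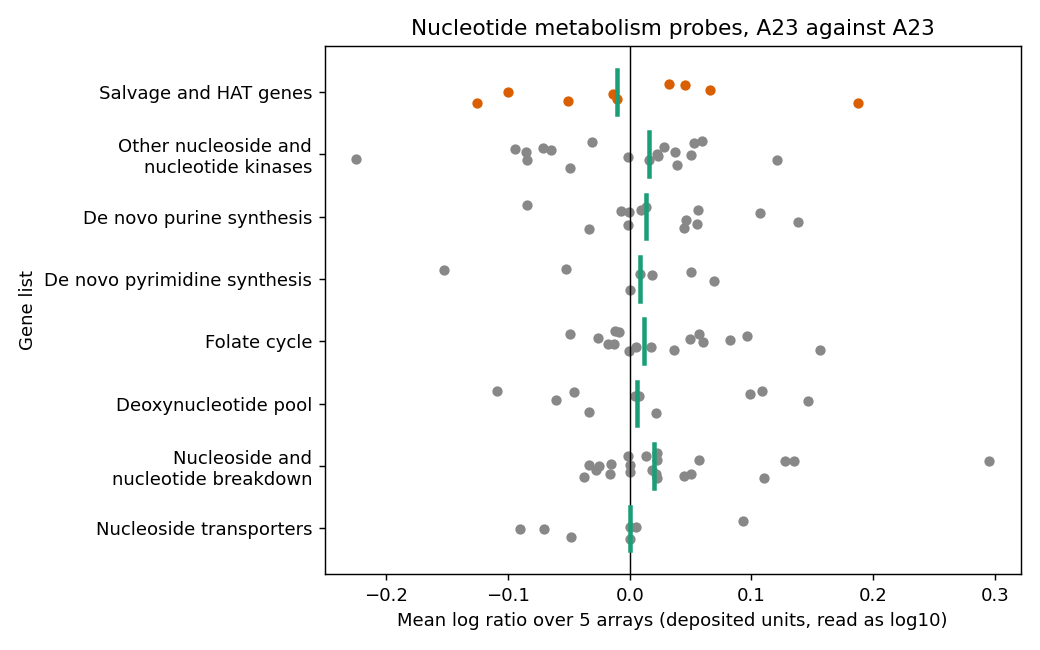
Mean log ratio over 5 arrays (deposited units, read as log10) of each probe, by gene list, with the salvage and HAT genes in orange. Green bars are list medians, which run from -0.0106 for the salvage and HAT genes to 0.0199 for breakdown enzymes, and each list has probes on both sides of 0.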

How the data were processed

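The authors deposited 1 log ratio per probe and array, for 5 two-colour arrays of A23 RNA against itself. Image quantification, background correction and normalization were not given in the sources used here. These deposited log ratios were taken to be log10 because the label protocol names Agilent labelling and many values are exactly 0, as in Agilent's log10 ratio column. Values of both signs lie around a median of 0 on each array, which shows log ratios but not their base. A log2 reading of the deposited values was the alternative. The table has 0 columns of other samples.

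Of 20868 probes, 17786 had 1 gene symbol in the platform's annotation, which names mouse genes, 16 had several and 3066 had none. The hamster gene table lists 6 of the 7 symbols as spelled, all but Hprt. No genome was used, so no positions are given.

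Values were converted to log2 and fitted over all probes with limma 3.58.1 under R 4.3.3 (intercept alone, eBayes), with Benjamini-Hochberg adjustment and a threshold of 0.05. Results are in deposited units. Exact tests flipped the signs of the 5 arrays, two-sided. Data were simulated with the real SDs (20868 probes), each unchanged probe drawn around 0. There the fit found 38.8% of the 1.5-fold, 73.1% of the 2-fold and 92.4% of the 4-fold changes put in. It made 5 false calls, a count for that setting only, as the real arrays of A23 against itself gave 713 calls. Detectable folds used scipy 1.17.1.

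The members and lists were chosen with earlier results of these data known. Named were all members, the 3 probes of each list with the lowest p (other probes of those genes, probes at 0 on all arrays and those called under an alternative were added after their values were seen) and the 2 closest genes per member. No list was given a set test.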

Additional observations from a re-analysis of the deposited data

Results flagged for a closer look

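In 31 groups of 5 values the gap between an extreme value and its neighbour was compared with the whole range, where chance marks about 1 in 20. The SD of all log ratios stood out on replicate 2, at 0.174. Ak1, an adenylate kinase, stood out with -0.198 on replicate 5, against -0.0663 to -0.0491 on the other arrays. Ppat probe 20686 stood out with 0.128 on replicate 4, against 0.0248 to 0.0468 on the others. None of the 9 probes of the salvage and HAT genes was marked by this comparison, Tk1 included, whose high values fell on 2 arrays.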

How the results depend on the processing

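The mean ratio of each of the 9 probes kept its sign with scaling, quantile normalization, array weights and each array left out. The other alternatives (median centring, robust and plain fits, exact zeros as missing, probes without exact zeros, a minimum of 1.2-fold, probes averaged by gene, exact sign flips) leave the mean of a single probe as it is by construction, median centring changes nothing because array medians are already 0, and sign flips of 5 arrays cannot go below 0.0625. The calls that changed were Hprt with array weights (0.0436, limma adjusted p = 0.0449) and Tyms probe 3835 with array weights (-0.136, 0.0356) and without probes holding an exact 0 (-0.125, 0.0483). So 2 of the 9 probes passed with array weights, beside 7.58% of all probes. Without probes holding an exact 0, 1 of the 9 passed, beside 8.54% of the probes in that fit. Apart from the minimum of 1.2-fold, under which 0 passed and adjusted p reached 1, the adjusted p of Hprt ran from 0.0449 to 0.177, that of Tyms probe 3835 from 0.0356 to 0.193 and that of Tk1 from 0.0875 to 0.280. Of the 94 pathway probes, 4 passed with scaling and 9 with array weights, in fits that called 4.58% and 7.58% of all probes. The fit without probes holding an exact 0 left out 20 of the 94. Of the pathway probes that remained 6 passed, where 8.54% of all probes in that fit did. Over all probes 713 passed, against 956 with scaling, 529 with quantile normalization, 250 in the robust fit and 1581 with array weights. The count was 379 in the plain test, 367 with exact zeros as missing and 52 against a minimum of 1.2-fold. It was 1325 without probes holding an exact 0 and 4 to 63 when 1 array was left out. The cause of these shifts was not tested, except that fewer arrays or fewer probes enter the last fits by construction. Leaving out 1 array gave Tk1 means of 0.133 to 0.216, Hprt 0.0399 to 0.0495 and Aprt 0.0160 to 0.0562. With single arrays left out, the list median crossed 0 for purine synthesis (-0.00182 to 0.0371), pyrimidine synthesis (-0.00190 to 0.0167), the deoxynucleotide pool (-0.0106 to 0.00592) and other kinases (-0.00235 to 0.0283), stayed positive for the folate cycle (0.0102 to 0.0188) and breakdown (0.00599 to 0.0219), and ran from -0.0382 to 0 for transporters. No paired analysis was possible because the arrays form a single group. The table gives no intensity, so what signal over background limits is unknown.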
